A study of Mus musculus with 12 samples.

Results

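ABC transporters are membrane pumps built around a shared ATP-binding cassette, and they were read here as every gene of the array table whose symbol is Abca, Abcb, Abcc, Abcd, Abce, Abcf or Abcg, a number and an optional letter. This rule found 48 of 19494 genes, each with 1 probe set, and used no measured value. Of the 48 genes, 33 were tested and 15 fell below a filter on low values. RNA from 2 blood-forming populations of mouse bone marrow was hybridised, with 12 arrays in 4 groups of 3 mice. HSC, haematopoietic stem cells, were sorted as CD48- CD150+ cells within LSK (Lin- Sca-1+ Kit+ marrow cells), and MPP, multipotent progenitors, as CD48+ CD150- LSK cells. The group called KO came from Nfat5 fl/fl Vav-Cre mice (numbers 2, 11 and 70) and the group called WT from Nfat5 +/+ Vav-Cre mice (numbers 3, 12 and 64). NFAT5 is the Rel-family factor that cells use to cope with high salt. Vav-Cre is active throughout the blood-forming system, not only in the sorted cells, and both genotypes carried the Cre. All mice were untreated and in steady state, and the sources used here give no age, sex or strain. Each mouse gave 1 HSC array and 1 MPP array.

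The family is ordered by what its members move. Abca and several Abcg proteins carry cholesterol, phospholipids and other lipids out of membranes, and Abcb1 and Abcc proteins and Abcg2 export drugs and organic anions. Abcd proteins bring fatty acyl chains into peroxisomes or move cobalamin out of lysosomes, some Abcb proteins sit in mitochondria, and Abce1 and the Abcf proteins are soluble and act at the ribosome. In blood stem cells the family is best known through Abcg2, which pumps Hoechst dye out of the cell and so defines the side population of marrow, and through the P-glycoproteins Abcb1a and Abcb1b, which clear rhodamine. Abcg3 is a rodent relative of Abcg2 whose ATP-binding domain departs from the usual motifs, and its substrate is not established.

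Abcg3 and Abcg2 carried the differences between HSC and MPP described next, so the 250 bases before their annotated starts are printed here from RefSeq (assembly GRCm38.p6), written 5′ to 3′ on the strand of the gene. Abcg2 has 3 listed starts, and the arrays do not say which of them was used. Capitals mark matches, on either strand, to any of 5 short motifs: TGGAAA (the core bound by NFAT5 and by other NFAT factors), GCGTG (the aryl hydrocarbon response core), GGGCGG (the GC box), AGATAA (bound by GATA factors) and TGTGGT (the RUNX core). No letter was shared by 2 matches.
Abcg3, chr5:104982718-104982967, minus strand: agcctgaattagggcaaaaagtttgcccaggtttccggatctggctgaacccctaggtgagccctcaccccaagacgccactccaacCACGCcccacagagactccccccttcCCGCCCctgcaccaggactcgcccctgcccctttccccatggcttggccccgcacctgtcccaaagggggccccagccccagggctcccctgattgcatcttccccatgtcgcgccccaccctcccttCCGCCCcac
Abcg2, first start, chr6:58584283-58584532, plus strand: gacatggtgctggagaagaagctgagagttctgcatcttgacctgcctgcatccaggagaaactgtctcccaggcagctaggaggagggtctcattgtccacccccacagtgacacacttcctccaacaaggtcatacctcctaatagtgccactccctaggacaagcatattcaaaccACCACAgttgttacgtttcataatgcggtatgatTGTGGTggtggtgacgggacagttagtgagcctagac
Abcg2, second start, chr6:58596422-58596671, plus strand: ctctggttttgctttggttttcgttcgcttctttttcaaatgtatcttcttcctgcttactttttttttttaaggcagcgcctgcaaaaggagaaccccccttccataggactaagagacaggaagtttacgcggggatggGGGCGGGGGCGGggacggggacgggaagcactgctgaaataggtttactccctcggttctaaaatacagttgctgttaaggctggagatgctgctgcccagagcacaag
Abcg2, last start, chr6:58640296-58640545, plus strand: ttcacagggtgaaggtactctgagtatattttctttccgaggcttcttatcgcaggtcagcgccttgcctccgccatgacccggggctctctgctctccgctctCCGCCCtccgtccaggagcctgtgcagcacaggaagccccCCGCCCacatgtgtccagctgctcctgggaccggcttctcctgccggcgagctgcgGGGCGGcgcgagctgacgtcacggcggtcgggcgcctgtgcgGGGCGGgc
The Abcg3 window was 66.4% G or C and held 3 matches, of which 2 were GC boxes and 1 was the aryl hydrocarbon core. The Abcg2 windows were 51.2%, 50% and 67.6% G or C, with 2 RUNX cores in the first, 2 adjoining GC boxes in the second and 4 GC boxes in the last. None of the 4 windows held TGGAAA or AGATAA, which says only that these letters are not within these bases. Promoter windows were matched for 38 of the 48 ABC genes (45 windows), and none was held for Abcd2. The GC box was in 20 of the 45 windows (44.4%) against 32.7% of all 32851 windows of the same length, and TGGAAA was in 9 (20.0%) against 18.6%. GCGTG was in 13 (28.9%) against 28.2%, AGATAA in 5 (11.1%) against 9.99%, and TGTGGT in 7 (15.6%) against 14.0%. These shares describe letters, not binding, and none was tested.

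Values are log2 intensities, so a difference of 1 is a doubling of signal, and levels are compared between arrays of 1 gene, never between genes. Array medians lay between 5.81 and 5.91. The array of HSC from KO mouse 2 was the noisiest: the SD of its deviations from the group means was 0.438, and the other 11 arrays gave 0.276 to 0.378. Values without it are given beside several differences of Abcg3, Abcg2, Abcd2 and Abca4, and beside some but not all of the others that it moved. The targeted gene Nfat5 read 8.27 to 8.99 in WT HSC and 7.34 to 7.89 in KO HSC, and in MPP 7.82 to 8.28 (WT) and 6.99 to 7.45 (KO). Its values did not overlap between genotypes in either population, yet the difference did not pass the test over all genes (HSC −0.91, limma adjusted p = 0.566, MPP −0.87, adjusted p = 0.9999), and the sources used here do not say whether its probe set lies inside the floxed exons. The sort was visible in the arrays: the mean of 8 HSC marker genes was 7.90 to 8.59 on HSC arrays and 6.85 to 7.14 on MPP arrays, and that of 5 MPP marker genes was 6.03 to 6.97 on HSC arrays and 10.2 to 10.4 on MPP arrays. Of the LSK genes Kit was read, at 9.69 to 10.9.

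HSC and MPP were compared within WT, within KO and as the mean of both genotypes. This asks how transporter expression differs between the sorted stem cells and the sorted progenitors. Abcg3 and Abcg2 were higher in HSC, and Abcd2, which brings very-long-chain fatty acyl-CoA into peroxisomes, was lower. These 3 of 33 genes (9.09%) passed limma's adjusted p under 0.05 in the mean of both genotypes, where 4.85% of all 14620 genes tested passed. The median difference of the 33 genes was 0.12 (21 above 0, 12 below), against 0.05 over all genes tested.

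Abcg3 separated the populations completely. In WT mice it read 8.70, 8.67 and 8.84 in HSC and 5.60, 5.64 and 4.93 in MPP (mice 3, 12 and 64 in that order). In KO mice (2, 11 and 70) it read 7.69, 8.43 and 8.11 in HSC and 5.25, 5.42 and 5.13 in MPP. Every HSC array lay above every MPP array, by over 2 log2 units between the nearest of them. The difference was 3.35 (SE 0.23, adjusted p = 9.57e-05) in WT, a 10.2-fold signal with a 95% interval of 7.16 to 14.4. In KO it was 2.81 (SE 0.23, adjusted p = 3.39e-04), a 7.01-fold signal, and 3.002 without the HSC array of KO mouse 2. The mean of both genotypes was 3.08 (SE 0.16, 95% interval 2.72 to 3.44, adjusted p = 3.74e-06), and 3.17 without that array. Within each mouse, HSC exceeded MPP by 3.08 ± 0.47 (SD, n = 6 mice), in 6 of 6 mice. The two-sided exact permutation p = 0.0312 from flipping signs is the smallest that 6 mice can give. It comes from the same arrays as the call and is not adjusted. Abcd2, Abca4, Abcc2 and Abce1 also reached it, and its share over all genes was not counted. Abcg3 kept its call in WT, in KO and in their mean under each alternative tried.

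Abcg2, the exporter behind the side population, was higher in HSC of 5 of 6 mice. In WT mice 3, 12 and 64 it read 10.75, 10.90 and 10.71 in HSC and 8.94, 9.23 and 9.29 in MPP. In KO mice 2, 11 and 70 it read 9.19, 10.87 and 10.68 in HSC and 9.42, 9.69 and 9.23 in MPP. The HSC array of KO mouse 2 thus lay within the 6 MPP arrays (8.94 to 9.69), while the other 5 HSC arrays lay between 10.68 and 10.90. The WT difference was 1.63 (SE 0.36, adjusted p = 0.046), a 3.1-fold signal with a 95% interval of 1.79 to 5.36. The mean of both genotypes was 1.22 (SE 0.25, 95% interval 0.66 to 1.78, adjusted p = 0.0198), and 1.48 without the HSC array of KO mouse 2. The paired difference was 1.22 ± 0.74 (SD, n = 6 mice, two-sided exact permutation p = 0.0625).

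The call for Abcg2 in WT was close to the threshold. With the mouse as a block its adjusted p was 0.0813, and without mouse 3, 12, 64 or 70 it was 0.278, 0.231, 0.238 or 0.0698. In the mean of both genotypes it was lost without mouse 3, 11, 12, 64 or 70 (adjusted p = 0.0577 to 0.0946) and kept without mouse 2. In KO alone Abcg2 differed by 0.80 (SE 0.36, adjusted p = 0.401), and by 1.33 (adjusted p = 0.0119) without the HSC array of KO mouse 2. The difference between the genotypes in this contrast was −0.83 (SE 0.51, adjusted p = 0.9996), and −0.30 without that array, so it was not shown to differ between WT and KO.

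Marker means of the HSC array of KO mouse 2 were set beside those of the other 5 HSC arrays. Its HSC marker mean was 8.19, within their 7.90 to 8.59. Its MPP marker mean was 6.62, within their 6.03 to 6.97 and below every MPP array. That mean was above WT mice 3 (6.12) and 12 (6.03) and KO mouse 11 (6.25), and below WT mouse 64 (6.65) and KO mouse 70 (6.97). Whether the sort bears on its Abcg2 value was not tested. The same array also gave the lowest HSC value of Abcg3 (7.69) and the lowest value of Abcf2 on any array (5.01, against 6.43 to 8.04 on the other 11).

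**Figure D1:**
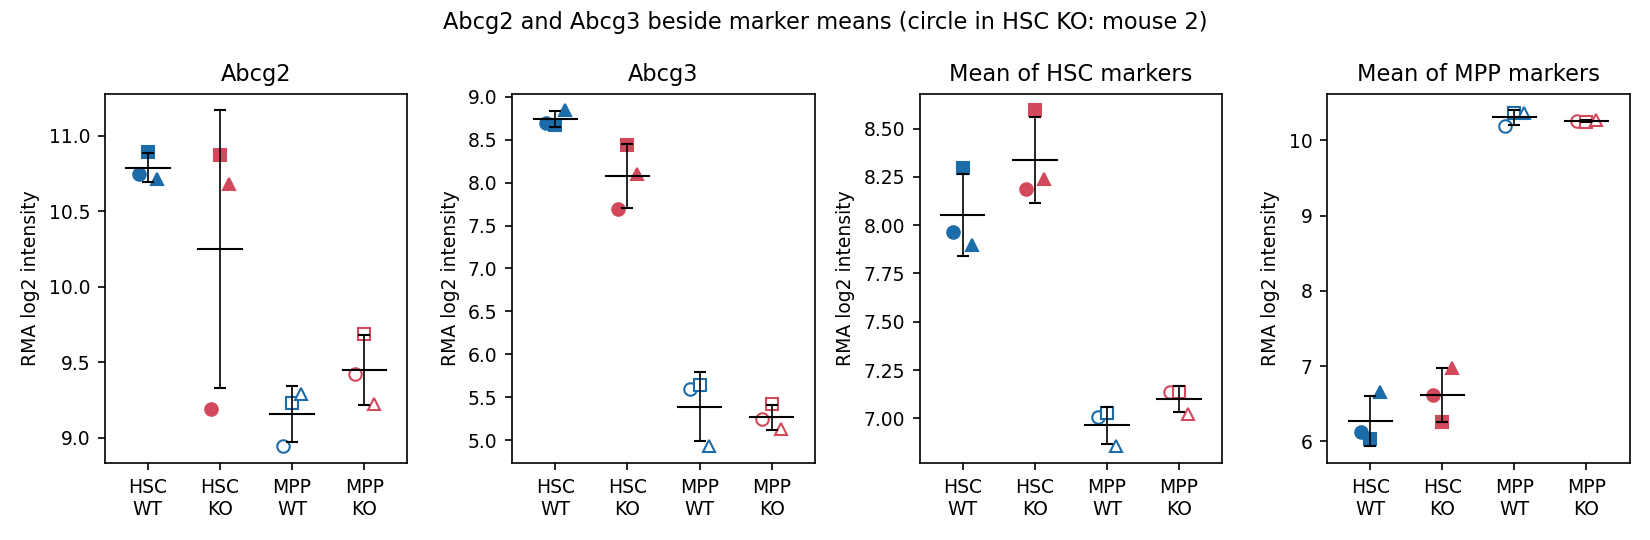
Log2 intensity of Abcg2 and Abcg3 and the mean of 8 HSC markers and of 5 MPP markers on each of the 12 arrays; filled points are HSC and open points MPP, blue is WT and red KO, symbols mark the mouse, lines are group means and bars the SD of 3 mice. The HSC array of KO mouse 2 lies among the MPP arrays for Abcg2 (9.19) and among the other HSC arrays for both marker means (8.19 and 6.62).

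Abcd2 was lower in HSC of every mouse. In WT mice it read 5.49, 5.30 and 4.44 in HSC and 5.77, 6.15 and 5.62 in MPP. In KO mice it read 4.84, 4.75 and 5.19 in HSC and 5.90, 6.65 and 6.17 in MPP. No HSC array reached the lowest MPP array. The mean of both genotypes was −1.04 (SE 0.21, 95% interval −1.49 to −0.58, adjusted p = 0.0156), and 6 of 6 mice showed its direction (paired −1.04 ± 0.53, SD, n = 6 mice, two-sided exact permutation p = 0.0312). The difference was −1.31 (SE 0.29, adjusted p = 0.061) in KO and −0.77 (SE 0.29, adjusted p = 0.259) in WT. The call was lost without mouse 11 (adjusted p = 0.0766) or mouse 12 (0.0626) and kept without the HSC array of KO mouse 2 (−1.02, adjusted p = 0.0341). The KO difference without that array was −1.27. The HSC values lay on both sides of 4.96, the mean below which genes were not tested, and differences between weak signals are compressed on arrays. The 3 genes near it in role gave no call: Abcd3, another peroxisomal importer, differed by 0.03 (SE 0.48) with values from 4.17 to 7.24, Abcd4, the lysosomal cobalamin carrier, by 0.28 (SE 0.11, adjusted p = 0.18), and Abcb9, a lysosomal peptide carrier, by 0.12 (SE 0.12).

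**Figure D2:**
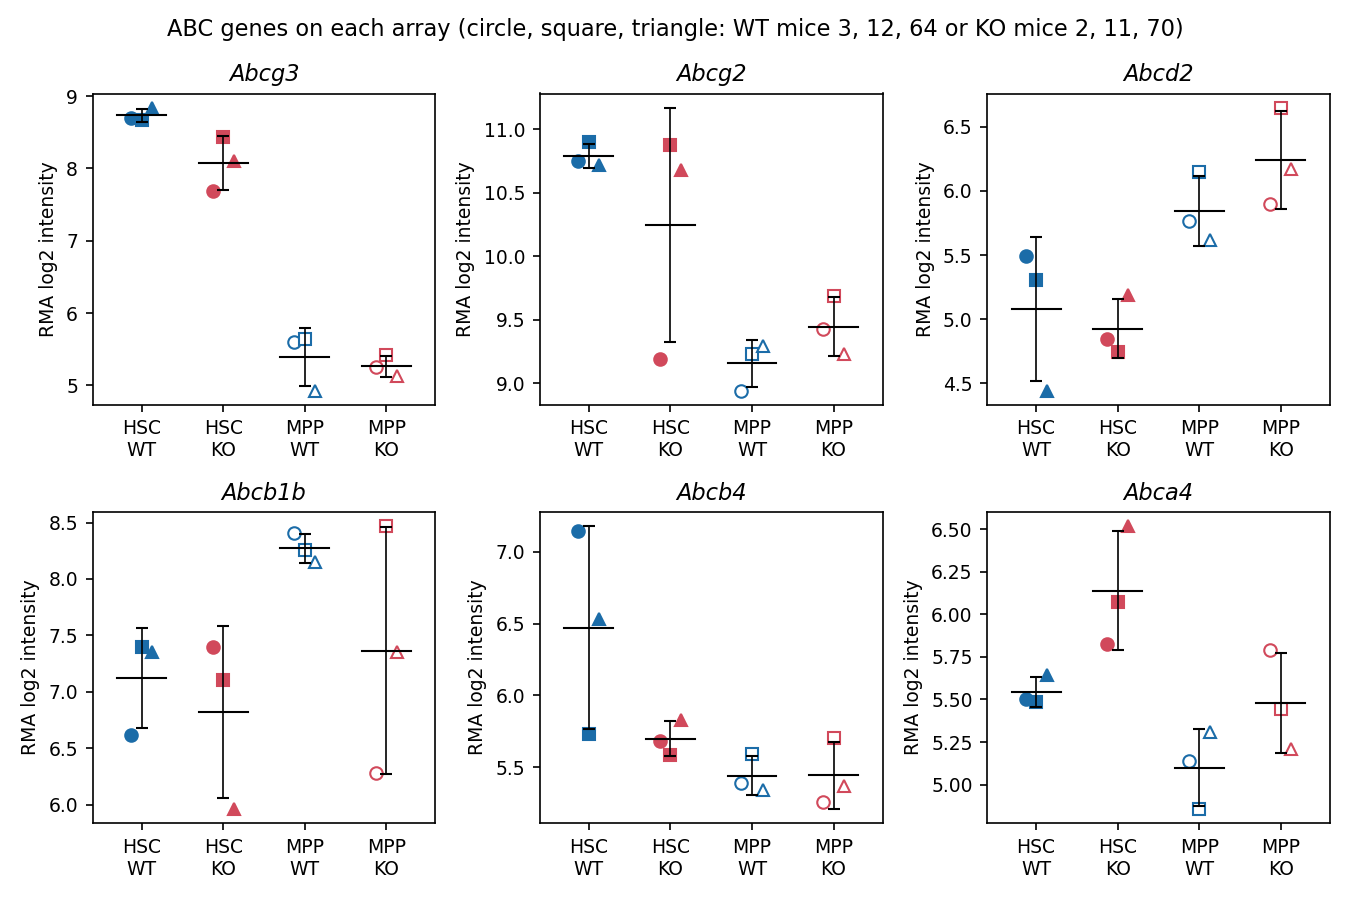
Log2 intensity of Abcg3, Abcg2, Abcd2, Abcb1b, Abcb4 and Abca4 on each of the 12 arrays, with filled points for HSC, open points for MPP, blue for WT, red for KO and a symbol for each mouse; lines are group means and bars the SD of 3 mice. Over all 12 arrays Abcg3 (7.69 to 8.84 in HSC, 4.93 to 5.64 in MPP) and Abcd2 (4.44 to 5.49 in HSC, 5.62 to 6.65 in MPP) separate the populations. The other 4 panels overlap over all 12 arrays. Within each genotype Abca4 does not overlap either, and Abcg2, Abcb1b and Abcb4 do not overlap within WT.

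Among the exporters of drugs and organic anions, 10 genes were tested, 7 lay above 0 and 3 below (median 0.21), and Abcg2 alone passed. The P-glycoproteins did not. Abcb1b read 6.61, 7.40 and 7.35 in WT HSC and 8.41, 8.25 and 8.15 in WT MPP, so WT values did not overlap (difference −1.15, SE 0.51, adjusted p = 0.347). In KO it read 7.40, 7.11 and 5.96 in HSC and 6.28, 8.47 and 7.35 in MPP, where the populations overlapped, and the mean of both genotypes was −0.85 (SE 0.36, adjusted p = 0.226). Abcb1b was lower in HSC of 5 of 6 mice, with KO mouse 2 the other way. Abcb1a read 6.09 to 7.70 in HSC and 5.60 to 7.40 in MPP and differed by 0.22 (SE 0.32, adjusted p = 0.737), by 0.01 with the HSC array of KO mouse 2 dropped and by −0.21 without mouse 2. Abcb1a and Abcb1b are close paralogs, as Abcg2 and Abcg3 are relatives, and whether probes of either pair cross-match was not tested. Abcc2, an exporter of conjugated organic anions, was higher in HSC of 6 of 6 mice by a mean of 0.33 (SE 0.11, adjusted p = 0.13). Abcc4, which exports cyclic nucleotides and prostaglandins, differed by −0.29 (SE 0.17), or −0.17 with the HSC array of KO mouse 2 dropped, and Abcc5 by 0.28 (SE 0.27), with 9.75 on the HSC array of WT mouse 3 against 7.75 to 8.60 on the other 11. Abcc1, Abcc3, Abcc6 and Abcc10 differed by 0.12, −0.03, 0.20 and 0.29.

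Of the lipid exporters, 9 of 12 were tested, 7 above 0 and 2 below (median 0.13), and 0 passed. Abcb4, which flips phosphatidylcholine across the membrane in bile formation, read 7.14, 5.74 and 6.53 in WT HSC and 5.39, 5.59 and 5.34 in WT MPP. Its KO HSC values were 5.68, 5.59 and 5.83 and its KO MPP values 5.26, 5.71 and 5.37. High values were thus seen in WT HSC only, in mice 3 and 64, and the WT difference was 1.03 (SE 0.29, adjusted p = 0.123). Without mouse 12 it was 1.47 and passed (adjusted p = 0.0412), and the mean of both genotypes, 0.64 (SE 0.21, adjusted p = 0.115), then became 0.86 (adjusted p = 0.0236).

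Abca4, known in photoreceptors for moving retinal conjugates, was higher in HSC of 6 of 6 mice. It read 5.50, 5.48 and 5.64 in WT HSC and 5.14, 4.86 and 5.31 in WT MPP. In KO it read 5.83, 6.07 and 6.52 in HSC and 5.79, 5.44 and 5.21 in MPP. The mean of both genotypes was 0.55 (SE 0.15, adjusted p = 0.0664), and it passed with array weights on all 12 arrays (adjusted p = 0.0454), without the HSC array of KO mouse 2 (0.0438) or without mouse 2 (0.0309).

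The cholesterol exporters Abca1 and Abcg1 gave no call. Abca1 read 6.41, 7.27 and 6.09 in WT HSC, 6.84, 7.55 and 6.94 in WT MPP, 6.76, 9.38 and 6.34 in KO HSC and 6.58, 7.52 and 6.06 in KO MPP. The value of KO mouse 11 in HSC stood above the 6.06 to 7.55 of the other 11 arrays, and the interval of the mean difference was correspondingly wide, −0.95 to 1.21 around 0.13, which was 0.31 without the HSC array of KO mouse 2. Abcg1 read 5.48, 6.05 and 5.79 in WT HSC, 5.84, 5.43 and 5.84 in WT MPP, 5.63, 5.71 and 5.61 in KO HSC and 5.72, 5.79 and 5.55 in KO MPP. Its mean difference was 0.01 (SE 0.12). Abca7, which carries phospholipids and aids phagocytosis, differed by 0.35 (SE 0.15, adjusted p = 0.247). Abca2, Abca3, Abcg4 and Abcg5 differed by −0.08, −0.03, 0.17 and 0.10.

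The soluble members lay lower in HSC on balance without a call, with 1 above 0 and 3 below (median −0.24). Abce1, which splits ribosomes after termination, read 8.77, 9.11 and 8.68 in WT HSC, 8.87, 9.28 and 9.15 in WT MPP, 8.78, 8.11 and 9.14 in KO HSC and 8.93, 9.04 and 9.47 in KO MPP. It was lower in HSC of 6 of 6 mice, but by a mean of −0.36 (SE 0.18, adjusted p = 0.313) that did not pass. Abcf1, which acts in translation initiation, differed by 0.13 (SE 0.23), Abcf2 by −0.60 (SE 0.35), or −0.31 with the HSC array of KO mouse 2 dropped, and Abcf3 by −0.12 (SE 0.43). Of the mitochondrial members Abcb10, which serves haem synthesis, read 5.24, 5.36 and 4.80 in WT HSC, 5.36, 5.23 and 5.18 in WT MPP, 5.49, 5.49 and 5.09 in KO HSC and 5.56, 5.03 and 5.77 in KO MPP. It differed by −0.11 (SE 0.16) and Abcb8 by −0.03 (SE 0.13). Abcb6 fell below the filter. The potassium channel regulators Abcc8 and Abcc9 differed by 0.15 and −0.11, and Abca16, a less studied member, by 0.19.

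**Figure D3:**
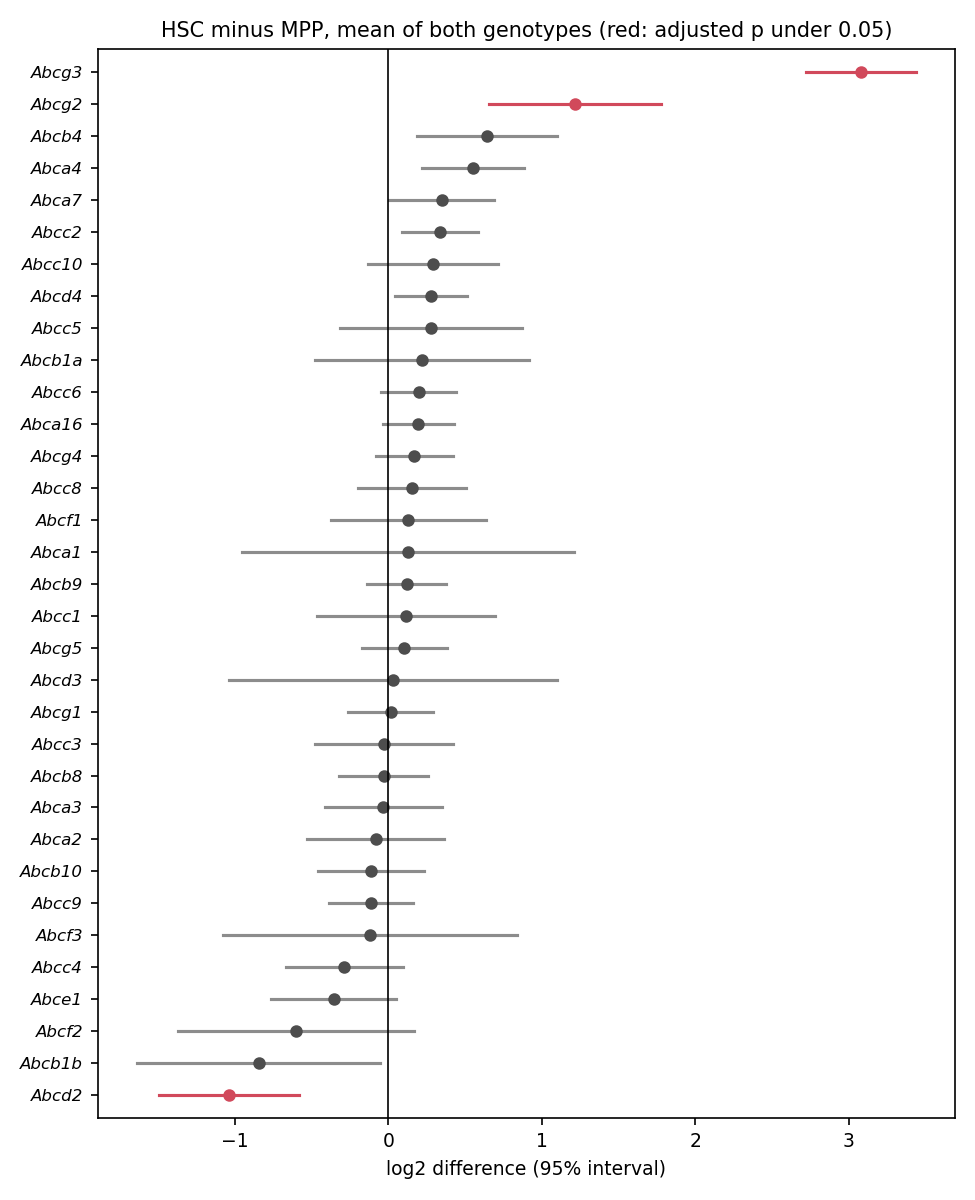
Log2 difference, HSC minus MPP as the mean of both genotypes, of the 33 ABC genes tested, with bars for the 95% interval of limma's fit and red for an adjusted p under 0.05. Abcg3 (3.08) and Abcg2 (1.22) lie to the right and Abcd2 (−1.04) to the left, and no other gene passed.

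Within WT, 2 of 33 genes passed (Abcg3 and Abcg2, 6.06%, against 2.07% of all genes tested), and within KO 1 (Abcg3, 3.03%, against 1.26%). At an unadjusted p under 0.05 the counts were 7 in WT (21.2%, against 14.1% of all genes tested), 7 in KO (21.2%, against 12.4%) and 9 in the mean of both genotypes (27.3%, against 19.6%). Values of HSC and MPP did not overlap for 8 genes in WT (24.2%, against 21.3% of all genes tested) and for 6 in KO (18.2%, against 17.1%). Over all 12 arrays they did not overlap for Abcg3 and Abcd2 (6.06%, against 4.21%). Leaving out the HSC array of KO mouse 2 raised the KO count from 1 to 2, by Abcg2.

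Marker genes of other cells were also read in the sorted populations. The means of B cell and megakaryocyte genes lay apart between HSC and MPP arrays, and those of the other lists overlapped. The mean of 7 of 8 B cell genes was 5.83 to 6.10 on HSC arrays and 6.61 to 7.18 on MPP arrays. That of 6 of 7 monocyte genes was 5.39 to 6.42 and 6.29 to 6.77, and that of 5 of 6 megakaryocyte genes 7.31 to 7.54 and 6.45 to 7.21. Neutrophil genes (10 of 10) gave 5.63 to 7.82 in HSC and 4.84 to 6.99 in MPP, erythroid genes (5 of 8) 6.20 to 7.40 and 6.31 to 7.40, and T and NK cell genes (8 of 8, with Cd3d, Cd3g, Klrb1c and Ncr1 below the filter) 4.81 to 5.16 and 5.08 to 5.34. Of the T and NK cell genes only Nkg7 lay apart, at 5.75 to 6.95 in HSC and 8.03 to 8.78 in MPP. Single genes of other lists with overlapping means lay apart too. The monocyte genes Csf1r (5.39 to 5.85 in HSC, 5.99 to 6.76 in MPP) and Ccr2 (3.66 to 6.01, 6.10 to 7.56) were lower in HSC. So was the endothelial gene Pecam1 (5.89 to 7.48, 7.56 to 8.20), while the dendritic cell gene Cd209a was higher (5.97 to 6.18, 5.69 to 5.96). Dendritic cell genes (5 of 5) gave 5.27 to 5.48 and 5.23 to 5.63, and endothelial and stromal genes (7 of 7) 5.85 to 5.96 and 5.73 to 6.05. The part of these cells in the transporter differences was not tested. In RNA from sorted pools, fewer cells of a type and less RNA per cell cannot be told apart.

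KO and WT mice were compared next, within HSC, within MPP and on the mean of both arrays of a mouse, which asks whether the loss of NFAT5 alters the transporters. With limma, 0 of 33 ABC genes passed in HSC, in MPP or in the mouse means, and 0% of all 14620 genes tested passed in each of these 3 comparisons. At an unadjusted p under 0.05 there were 4 ABC genes in HSC (12.1%, against 6.29% of all genes), 1 in MPP (3.03%, against 3.19%) and 3 in the mouse means (9.09%, against 4.45%). The genotypes had no overlap in 3 genes in HSC (9.09%, against 8.87%) and in 2 in MPP (6.06%, against 9.49%), shares near those of all genes. The median KO minus WT difference of the 33 genes was −0.11 in HSC (12 above 0, 21 below) against 0.02 over all genes, 0.05 in MPP (20 above, 13 below) against 0.00, and 0.01 in the mouse means against 0.01. The median gene had a 95% interval of ±0.54 for a genotype difference in 1 population, from ±0.33 for Abca16 to ±1.53 for Abca1. The fit shares 1 spread over all 12 arrays, so these widths are the same in HSC and MPP. The SD of the deviations from group means was 0.350 to 0.438 on HSC arrays and 0.276 to 0.363 on MPP arrays. Differences beyond their own interval still missed the adjusted threshold, so the size that could be called with 3 mice a group was larger than these widths.

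**Figure D4:**
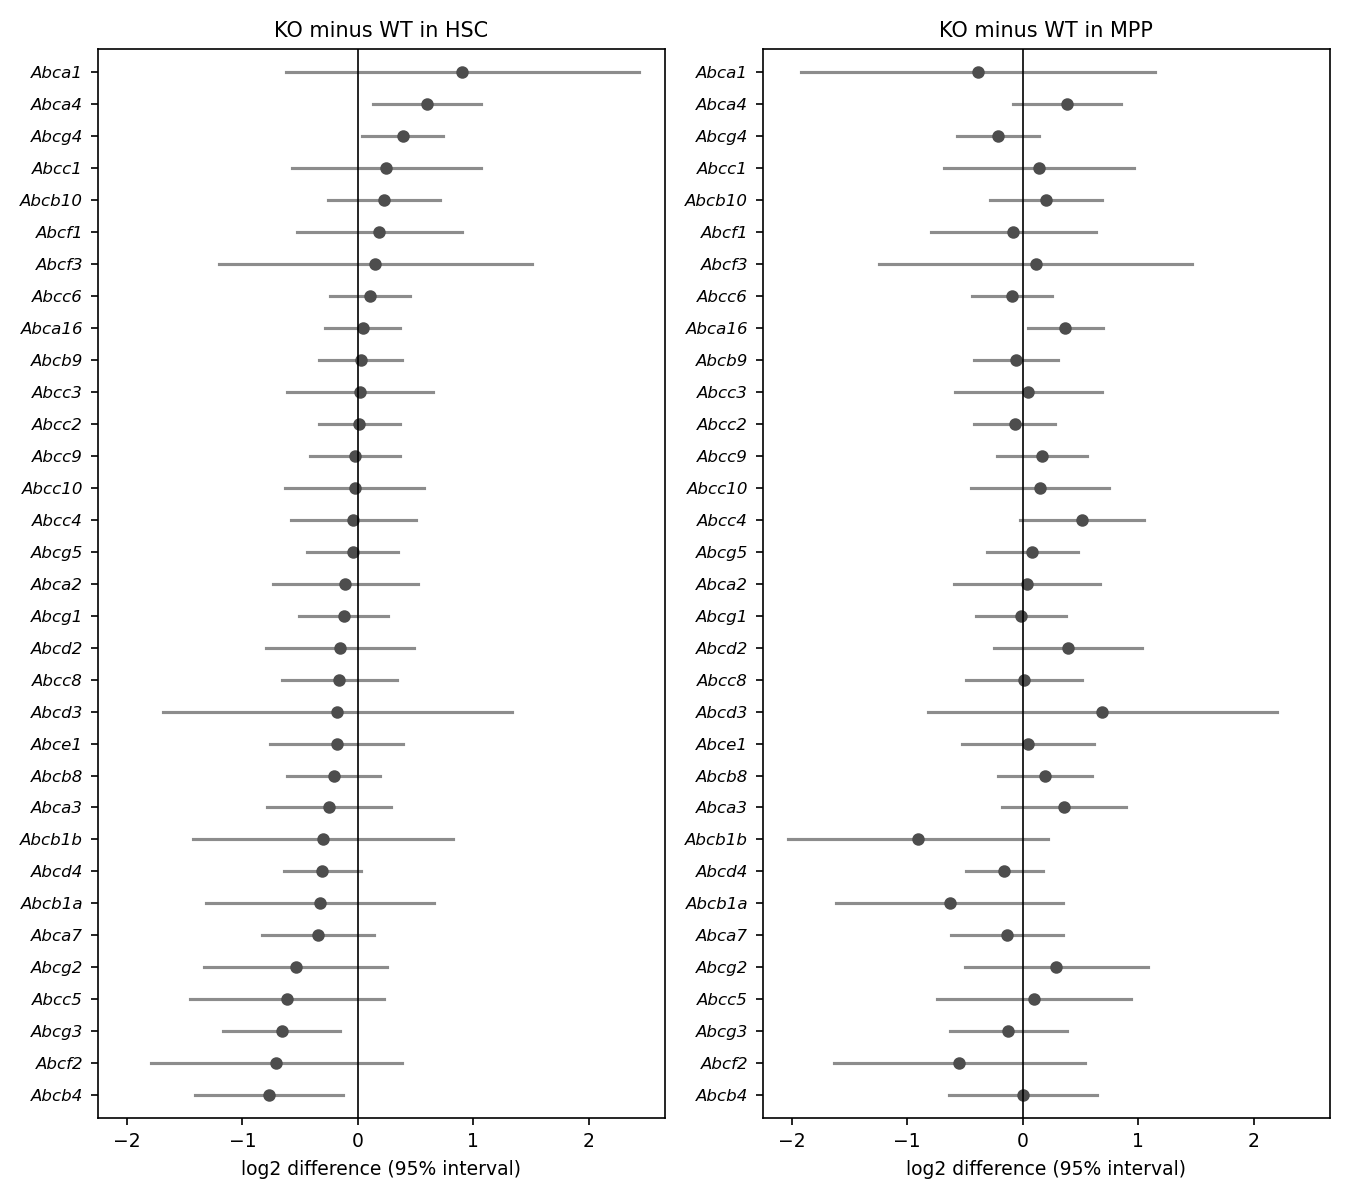
Log2 difference, KO minus WT, of the 33 ABC genes tested in HSC and in MPP, with bars for the 95% interval of limma's fit. Differences span −0.77 to 0.90 in HSC and −0.91 to 0.69 in MPP, and none passed an adjusted p under 0.05.

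In HSC the lowest p-values belonged to Abcg3, Abca4 and Abcb4, whose values by array are given above. Abcg3 was lower in each KO HSC array (7.69 to 8.43) than in each WT one (8.67 to 8.84), by −0.66 (SE 0.23, 95% interval −1.17 to −0.16, adjusted p = 0.691), and by −0.47 without the HSC array of KO mouse 2. In MPP it differed by −0.12 (SE 0.23), and the genotype differences of the 2 populations differed by −0.54 (SE 0.32, adjusted p = 0.9996), or −0.34 without that array. Abca4 was the only gene of the 33 whose values lay apart with KO above WT in HSC (5.83 to 6.52 against 5.48 to 5.64), by 0.60 (SE 0.21, adjusted p = 0.699), and by 0.75 without that array. In MPP it differed by 0.38 (SE 0.21), with overlap, and its mouse mean by 0.49 (SE 0.13, adjusted p = 0.9999). Abcb4 differed by −0.77 (SE 0.29, adjusted p = 0.753) in HSC, with WT mouse 12 (5.74) inside the KO range, by −0.76 without that array, and by 0.00 (SE 0.29) in MPP.

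Marker lists were set beside these values, and with limma 0 of their genes passed between genotypes in HSC, while at an unadjusted p under 0.05 there were 2 MPP genes and 1 each of the HSC, T and NK cell and monocyte lists. Of 9 neutrophil genes tested, 7 lay below 0 in KO HSC, with a median of −0.87, and the list mean was 5.82 to 7.82 in WT HSC and 5.63 to 7.55 in KO HSC, which overlap. In MPP 6 of 9 lay above 0 (median 0.31). The mean of 8 T and NK cell genes was 4.81 to 4.92 in WT HSC and 5.02 to 5.16 in KO HSC, without overlap, and the 4 of them tested lay above 0 (median 0.18). The endothelial and stromal mean did not overlap either, at 5.85 to 5.90 in WT HSC and 5.92 to 5.96 in KO HSC. In MPP that mean was lower in KO (5.73 to 5.83, against 5.91 to 6.05 in WT). The dendritic cell mean in MPP was higher in KO (5.46 to 5.63, against 5.23 to 5.45). All other list means overlapped between genotypes. Of 5 MPP marker genes, 4 lay above 0 in KO HSC (median 0.40), with list means of 6.03 to 6.65 and 6.25 to 6.97. Their part in the values of Abcg3, Abcb4 and Abca4 was not tested.

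Abcg4, a sterol exporter, was the member whose genotype difference changed most between populations by p-value. It read 6.80, 6.43 and 6.58 in WT HSC, 7.19, 7.06 and 6.72 in KO HSC, 6.76, 6.68 and 6.79 in WT MPP and 6.55, 6.40 and 6.63 in KO MPP. KO was higher in HSC by 0.39 (SE 0.16, adjusted p = 0.79) with overlap, and lower in MPP by −0.22 (SE 0.16) without overlap. The interaction was 0.60 (SE 0.23, adjusted p = 0.9996), and 0.50 with the HSC array of KO mouse 2 dropped. It was the only one of 33 genes (3.03%) under an unadjusted p of 0.05 for the interaction, against 4.5% of all genes, and 0% of all genes passed after adjustment. Abcb4 (−0.78, SE 0.41) and Abca3 (−0.61, SE 0.34) followed. Abca3, a phospholipid carrier of lamellar bodies, read 6.90, 6.89 and 6.86 in WT HSC, 6.83, 6.30 and 6.77 in KO HSC, 6.70, 7.09 and 6.05 in WT MPP and 6.90, 7.13 and 6.89 in KO MPP. Its KO HSC values lay below all WT ones, but by −0.25 (SE 0.24, adjusted p = 0.951).

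In MPP the lowest p-values belonged to Abca16 and Abcc4. Abca16 read 4.74, 4.63 and 4.72 in WT MPP and 5.09, 5.11 and 4.99 in KO MPP, a gap without overlap of 0.37 (SE 0.15, adjusted p = 0.9999) close to the filter. Its HSC values were 5.23, 4.77 and 5.17 in WT and 5.09, 5.20 and 4.999 in KO, and overlapped. Abcc4 read 6.80, 6.33 and 6.12 in WT MPP and 7.11, 7.06 and 6.61 in KO MPP, with a difference of 0.51 (SE 0.24, adjusted p = 0.9999). In HSC it read 6.45, 6.29 and 6.47 in WT and 5.90, 6.48 and 6.71 in KO and differed by −0.04 (SE 0.24).

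Of the dye exporters, Abcg2 differed between genotypes by −0.54 (SE 0.36, adjusted p = 0.899) in HSC, and by −0.01 without the array of KO mouse 2. In MPP it differed by 0.29 (SE 0.36). Abcb1b differed by −0.91 (SE 0.51) in MPP, where KO mouse 2 read 6.28 and KO mouse 11 read 8.47; it was −0.36 without mouse 2 and −1.46 without mouse 11. In HSC it differed by −0.30 (SE 0.51), which became −0.59 with the HSC array of KO mouse 2 dropped and 0.13 without mouse 70. Abcb1a read 7.41, 6.89 and 7.30 in WT HSC, 7.70, 6.82 and 6.09 in KO HSC, 6.90, 7.40 and 7.11 in WT MPP and 5.60, 7.29 and 6.61 in KO MPP. Its mouse mean differed by −0.48 (SE 0.19, adjusted p = 0.9999) and did not overlap between genotypes, a pattern that was not counted over all genes. The KO arrays with low Abcb1a in each population, mouse 2 in MPP and mouse 70 in HSC, were also the lowest of their group for Abcb1b, its neighbour on the chromosome.

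Abca1 differed by 0.90 (SE 0.69, adjusted p = 0.931) in HSC, and by −0.04 without mouse 11. Abcg1 differed by −0.12 (SE 0.18) in HSC and −0.02 (SE 0.18) in MPP. Abcd2 differed by −0.15 and 0.39 (SE 0.29 each), Abce1 by −0.18 and 0.05 (SE 0.26 each) and Abcb10 by 0.23 and 0.20 (SE 0.22 each), in HSC and MPP in that order. By role the KO minus WT medians in HSC were −0.11 for lipid exporters, −0.03 for exporters of drugs and organic anions, −0.17 for peroxisomal and lysosomal members and −0.02 for soluble members. In MPP the same medians were 0.00, 0.07, 0.17 and −0.02.

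Genes that work with the transporters were read from lists of their partners. Of 10 tested regulators of lipid efflux, Apoe, the lipoprotein that takes up exported cholesterol, was higher in HSC and passed. It read 7.25 to 8.95 in HSC and 5.93 to 7.44 in MPP, with a mean difference of 1.44 (SE 0.31, adjusted p = 0.0212), and 1.62 without the HSC array of KO mouse 2. The list's median was −0.04, and the HSC array of KO mouse 2 (7.25) lay below the highest MPP array. Of 9 sensors of foreign compounds 0 passed, and Ahr, the receptor for aryl hydrocarbons, was nearest, higher in HSC on all 6 arrays against all 6 MPP arrays by 0.74 (SE 0.20, adjusted p = 0.059).

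The other partner lists held 0 genes that passed. Of 15 haem and iron genes the median was −0.03, and Slc25a38, which brings glycine into mitochondria for haem, differed by 0.40 (adjusted p = 0.119). Of 14 peroxisomal genes, partners of the Abcd proteins, the median was 0.02, and Pex7, an import receptor, differed by −0.52 (adjusted p = 0.147). Of 9 partners of Abce1 and the Gcn pathway the median was −0.23, and Eif2s3x, a subunit of the initiation factor eIF2, differed by −1.19 (SE 0.35, adjusted p = 0.0841). In KO against WT 0 genes of these 5 lists passed in HSC or in MPP. The list medians in HSC were 0.14, 0.11, 0.05, 0.05 and −0.21, and in MPP 0.07, 0.05, 0.08, 0.14 and −0.10, in the order given. The peptide transporters Tap1 and Tap2, ABC proteins with other symbols, differed between HSC and MPP by −0.41 (adjusted p = 0.273) and 0.18 (adjusted p = 0.607), and Cftr fell below the filter.

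The 15 genes below the filter had means of 3.42 to 4.93 and single values of at most 6.10. They were Abca5, Abca6, Abca8a, Abca8b, Abca9, Abca12, Abca13, Abca14, Abca15, Abca17, Abcb5, Abcb6, Abcb11, Abcc12 and Abcg8. They include Abcb11, the bile salt exporter of liver, and Abcg8, the partner of Abcg5. Fitted without a filter, 0 of them passed; Abca5 came nearest, with 0.61 (SE 0.19, adjusted p = 0.123) between HSC and MPP. Abca13 read 6.10 on the MPP array of WT mouse 3 and 4.05 to 4.65 on the other 11.

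Several members are neighbours in the GRCm38.p6 order of genes, in 5 blocks that hold 15 members. The block of Abca8b, Abca8a, Abca9, Abca6 and Abca5 lay wholly below the filter. In that of Abcb1a, Abcb1b and Abcb4 all 3 were tested, and their HSC minus MPP differences were 0.22, −0.85 and 0.64, so neighbours lay on both sides of 0. In the blocks of Abca17 with Abca3, Abcg5 with Abcg8, and Abca14 and Abca15 with Abca16, 1 gene each was tested.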

How the data were processed

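The deposited values are 1 log2 intensity per probe set and array, made by the authors with RMA. The submitters' processing notes name RMA and limma without versions. NuGEN kits amplified 300 pg of RNA per sample and added biotin, per the labels' protocols. RMA sets all arrays to 1 distribution, which removes a shift of the whole transcriptome and compresses weak differences, and amplification of so little RNA adds noise. Scanner files were not used here, and precision rests on how many arrays there were.

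Of 22142 probe sets, 19527 had 1 gene symbol, and all 19527 matched a gene of GRCm38.p6 by identifier. The other 2615 did not have a single symbol and were left out, and those with several symbols were not counted apart from those with none. In 33 genes with several probe sets, that of highest mean stood for the gene. Of 19494 genes, the 4874 in the lowest 25% by mean (below 4.96) were left out. With limma 3.58.1 in R 4.3.3, 4 group means were fitted to 12 arrays (6 mouse means for the genotype mean) and tested two-sided over 14620 genes with Benjamini-Hochberg adjustment at 0.05. The code was tested on simulated data. The members, roles, markers and partner lists were chosen with earlier results of these data known.

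Given by array were members that passed in any comparison, the 3 with the lowest p in each, and Abcg2, Abcb1a, Abcb1b, Abcg3, Abca1, Abcg1, Abcb10 and Abce1. Named partners were among the 3 with the lowest p of their list. HSC and MPP arrays pair by mouse, per the labels, and the deviations of a mouse's 2 arrays correlated by 0.032 to 0.091 (n = 6 pairs), with 2 of 6 arrays closest to their own mouse. Alternatives were the filter, the mean of probe sets, a second quantile normalization, the mouse as a block, array weights, another variance moderation, a fit on just the arrays compared, and dropping each mouse or the HSC array of KO mouse 2.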

Additional observations from a re-analysis of the deposited data

Results flagged for a closer look

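The HSC minus MPP difference of Abca1 was of opposite sign in every WT mouse (−0.44, −0.28 and −0.84) and in every KO mouse (0.18, 1.86 and 0.28). The test of this difference, the interaction, was 1.29 (SE 0.98, adjusted p = 0.9996) and did not pass. Without mouse 11, which holds the largest value, it was 0.75. The pattern was looked for in the 33 ABC genes tested and seen in Abca1 only, and its share over all genes was not counted.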

How the results depend on the processing

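The count of ABC genes that passed between HSC and MPP in WT was 2, and 1 with no filter and with the mouse as a replicate block (without Abcg2 in both); leaving out each mouse gave 1 to 2. In KO the count was 1, and 2 without the HSC array of KO mouse 2; leaving out each mouse gave 1 to 2. In the mean of both genotypes the count was 3, it stayed 3 with the replicate block, it was 2 with the filter at 50%, where Abcd2 was not tested, and 4 with array weights or with the HSC array of KO mouse 2 dropped, where Abca4 was added, and leaving out each mouse gave 1 to 4. The genotype and interaction counts were 0 under every setting tried, and among all genes tested 1 passed in HSC without mouse 11. The replicate block changed no other call. Counts over all genes moved more: with the replicate block 180 passed in WT against 302 and 113 in KO against 184, with only the arrays compared 79 passed in KO, and without each mouse 70 to 297, 57 to 168 and 379 to 524 (against 709) passed in WT, KO and their mean. Over 1473 values of 15 named genes under other settings, 13 lost a call and 8 gained one. The sign changed in 55, none of which passed under either setting; the median size of those differences was 0.065, and the largest was the 0.90 of Abca1 in HSC, which was −0.04 without mouse 11. With 3 mice a group the median 95% interval was ±0.54, and the adjusted test missed some differences larger than that.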
